A study of Mus musculus with 19 samples.

Results

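Calcium handling of striated muscle is represented here by 10 genes: the release channels Ryr1 and Ryr2, the voltage sensor Cacna1s, the store proteins Casq1 and Casq2, the pumps Atp2a1 and Atp2a2, the pump regulators Sln and Pln, and the cytosolic calcium buffer Pvalb. They are 10 of the 22180 genes that had a probe set annotated with 1 symbol on the arrays, and each gene was read from its brightest such probe set. In striated muscle an action potential opens release channels in the sarcoplasmic reticulum, calcium held there by calsequestrin flows to the sarcomeres, and SERCA pumps return it. Skeletal and heart muscle use different genes for most of these steps: Ryr1, Cacna1s, Casq1, Atp2a1 and Pvalb belong to skeletal fibres, above all fast ones, and Ryr2, Casq2, Atp2a2 and Pln to the heart, with Casq2, Atp2a2 and Pln also used by slow fibres. Smooth muscle also uses Atp2a2 and Pln, and Atp2a2 is expressed in most cell types.

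RNA from 19 mouse tissue samples of mixed C57Bl/6 and 129X1/SvJ strain was measured, 1 Affymetrix array per sample. The samples were 7 tumors, described as angiosarcomas (malignant tumors of endothelial lineage), and 4 aortas, 4 sternocleidomastoid muscles (neck) and 4 quadriceps femoris muscles (thigh). The tumors came from aP2-Cre/+;DicerFlox/- mice, in which the aP2 (Fabp4) promoter, active in adipocytes and in some other cells, drives the Cre recombinase against 1 floxed Dicer allele while the other allele is null. All normal tissues were wild type, so tissue and genotype changed together in each tumor comparison. The labels gave no age, sex, batch, tumor site or animal identity, and p-values therefore measure only the spread between these samples, which may be technical. The number of arrays limits the precision.

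Values are log2 intensities, on which 1 unit is a doubling, and array medians lay between 5.35 and 5.48. A signal below 5.35, the lowest array median, is called dim, because an array does not tell a low level from none there. The marker means of endothelium, smooth muscle and skeletal muscle were highest in tumors, aortas and the muscles, in that order. The mean of 8 endothelial markers was 9.96 to 10.94 in tumors, 8.58 to 8.76 in aortas, 7.87 to 8.30 in sternocleidomastoid and 7.84 to 8.07 in quadriceps. The mean of 7 smooth muscle markers was highest in the aortas (9.97 to 10.54). The mean of 8 skeletal muscle markers was 12.01 to 12.16 in sternocleidomastoid, 12.01 to 12.18 in quadriceps, 5.68 to 9.75 in tumors and 7.04 to 8.30 in aortas. The aortas also gave signal for markers of other muscle types and of adipocytes, which bears on every comparison with them. Their mean of 12 heart muscle markers was 7.95 to 8.38, against 5.44 to 5.68 in tumors, 5.82 to 5.90 in sternocleidomastoid and 5.75 to 5.84 in quadriceps. Their mean of 10 fast-fibre markers was 7.42 in aorta 1 and 7.22 in aorta 3, and 5.50 and 5.63 in aortas 2 and 4. The mean of 6 brown adipocyte markers was 10.81 to 11.42 in aortas, 4.96 to 8.25 in tumors, 8.12 to 9.73 in sternocleidomastoid and 6.10 to 7.91 in quadriceps. The mean of 5 general adipocyte markers was 10.10 to 10.33 in aortas, 5.32 to 10.97 in tumors, 7.94 to 8.62 in sternocleidomastoid and 7.88 to 10.23 in quadriceps. No calcium handling gene is on these marker lists.

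The 10 genes fell into opposed patterns. Ryr1, Cacna1s, Casq1, Atp2a1 and Pvalb were bright in both muscles and lower in every tumor and every aorta. Ryr2, Sln, Pln and Atp2a2 were brightest in the aortas. Casq2 overlapped between aortas and muscles and was lower in tumors. Because whole tissues were measured, fewer cells of a type and less RNA per cell cannot be told apart in any of these differences.

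**Figure D1:**
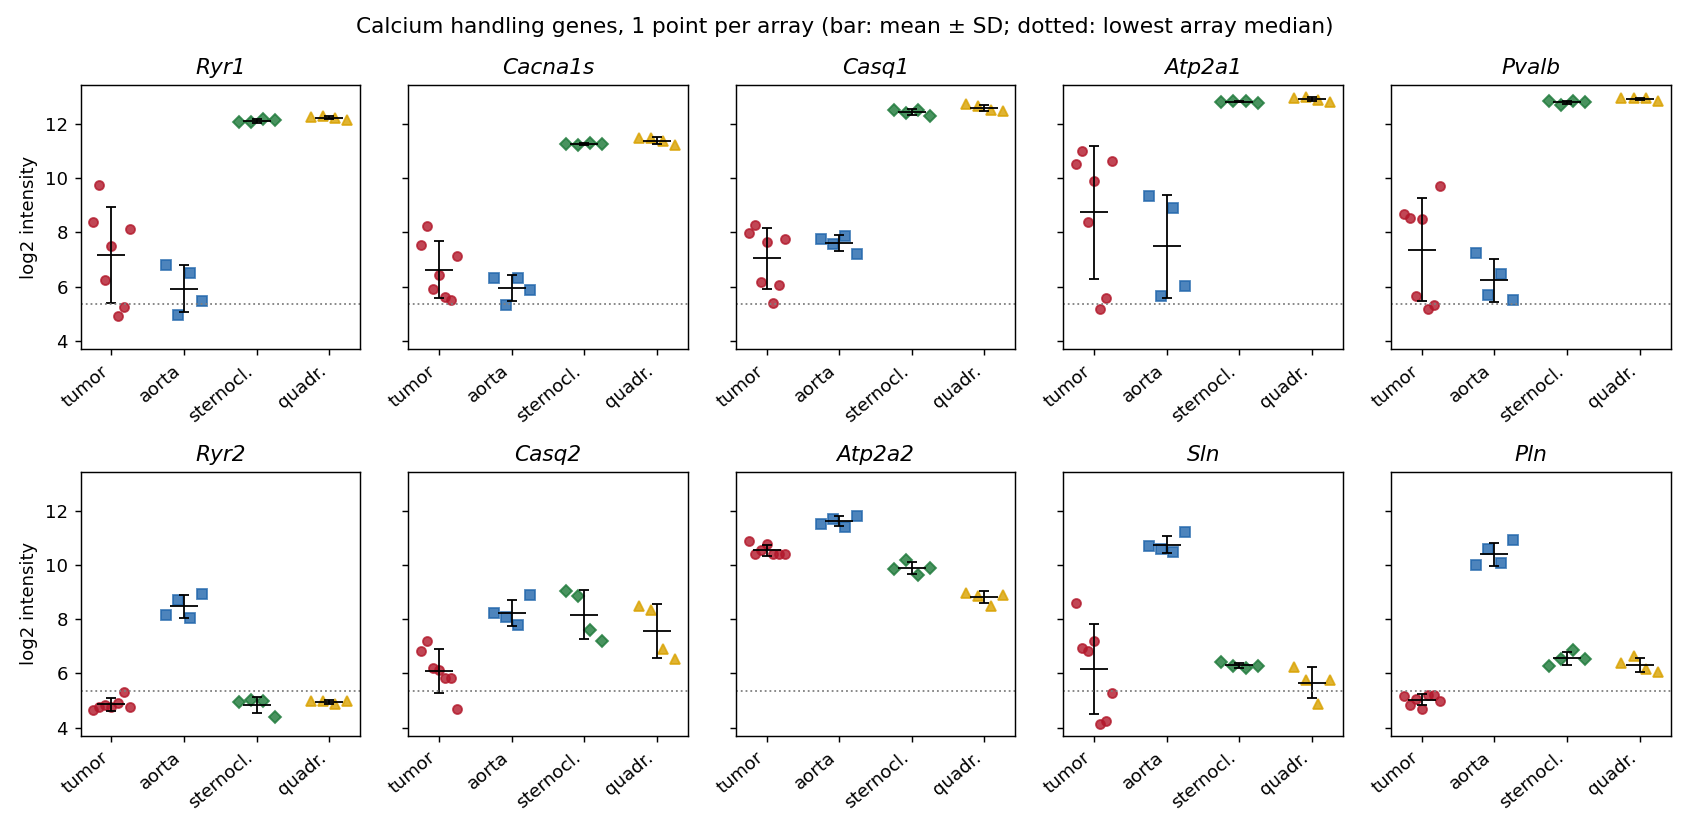
Log2 intensity (y axis) of each of the 10 genes on every array, by tissue (x axis); points are arrays, bars the mean ± SD, and the dotted line the lowest array median of 5.35. The upper row holds the 5 genes of skeletal fibres, with both muscles above all tumors and aortas, and the lower row the 5 genes shared with heart or slow muscle, with Ryr2, Sln, Pln and Atp2a2 highest in the 4 aortas.

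Against muscle (the mean of the sternocleidomastoid and quadriceps groups), 7 of the 10 genes were lower in tumors, 1 was higher and 2 did not pass the test (limma, adjusted p below 0.05 over all 22180 genes). Of all genes, 51.0% passed in this comparison, 25.7% lower and 25.3% higher. The median difference of the 10 genes was -2.94, beside -0.04 over all genes. Against aorta, 5 of the 10 were lower in tumors and 0 higher, with a background of 36.2% called, 17.5% lower and 18.6% higher. At an unadjusted p below 0.05, limma also gave 5 lower and 0 higher. In aortas against muscle, 5 were lower, 4 higher and 1 did not pass, where 32.3% of all genes were called, 15.3% lower and 17.0% higher. Between the muscles, 1 of 10 was higher in sternocleidomastoid and 0 lower (0 also at an unadjusted p below 0.05), beside 0.433% of all genes called. The ranges of the groups gave a like picture. Tumors lay wholly below muscle in 6 of the 10 genes and wholly above in 1, where 27.3% of all genes did not overlap (12.7% below, 14.6% above). Tumors lay wholly below aortas in 5 and above in 0, beside 23.7% not overlapping (11.5% below, 12.2% above). Aortas lay wholly below muscle in 5 and above in 4, beside 27.2% not overlapping (12.6% below, 14.6% above). Sternocleidomastoid lay wholly above quadriceps in 1 gene (Atp2a2) and below in 1 (Pvalb, which did not pass the test), beside 7.60% not overlapping (3.60% below). The comparisons share samples, so their counts are not independent of each other. Of all calls, 49.7% were higher in tumors than in muscle, 51.5% higher in tumors than in aorta and 52.6% higher in aorta than in muscle. With arrays centred on 5 housekeeping genes these shares were 10.9%, 7.3% and 37.8%, because that scaling moved the median of all genes to -0.715, -0.588 and -0.099 in the same 3 comparisons. Under it every call among the 10 genes kept its direction, and Casq1 (tumor against aorta) and Ryr2 (tumor against muscle) were called lower in addition. The housekeeping genes were not level between tissues. Ywhaz (1.91), Polr2a (0.73) and Hprt (0.57) were called higher in tumors than in muscle, and Tbp and Rplp0 were not called. Against aorta, Ywhaz (1.21), Polr2a (0.74) and Rplp0 (0.59) were called higher in tumors, and Tbp and Hprt were not called.

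**Figure D2:**
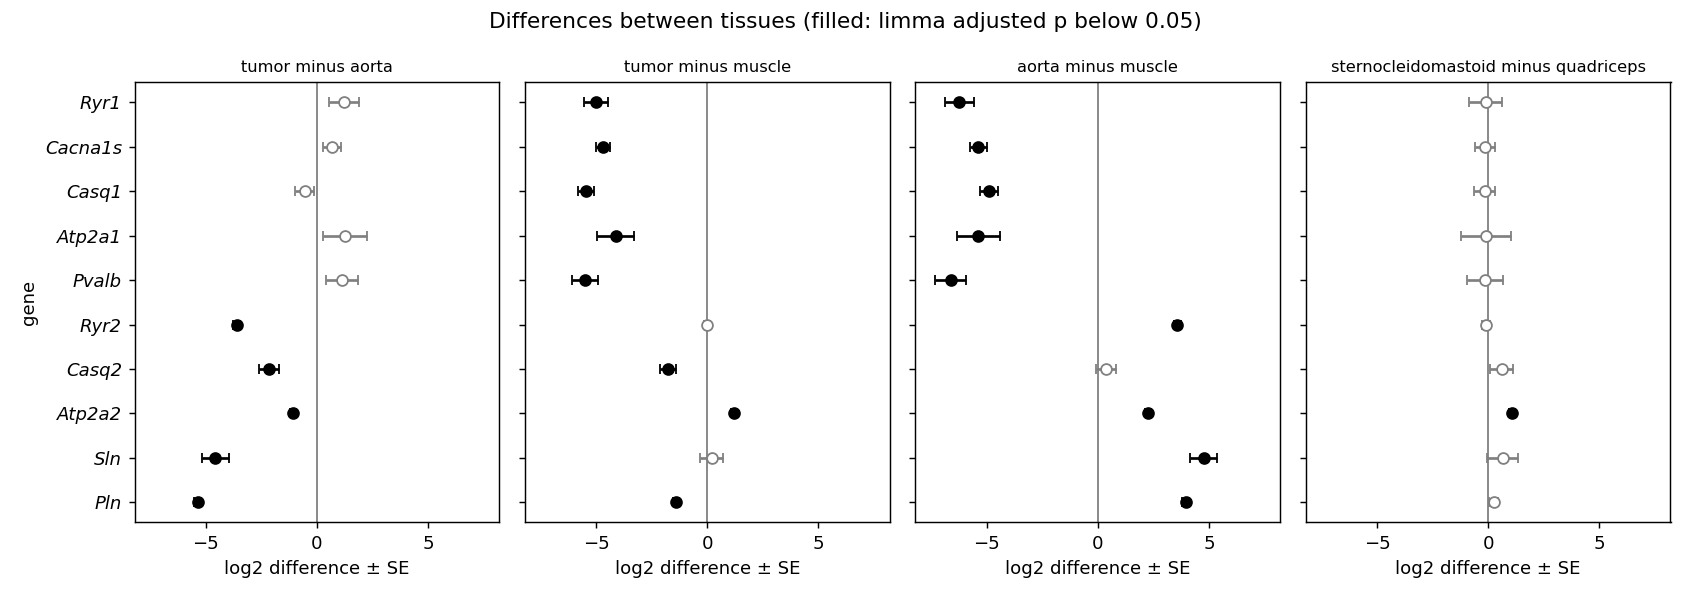
Log2 difference ± SE (x axis) of each gene (y axis) in the 4 comparisons, from the limma fit to all 19 arrays; filled points passed an adjusted p of 0.05. The 5 skeletal genes lie between -6.62 and -4.12 in both comparisons with muscle, and Atp2a2 is the single filled point between the muscles.

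Ryr1 encodes the release channel of skeletal muscle, mutated in human malignant hyperthermia. Its signal had a lowest value of 4.93, a median of 7.49 and a highest value of 9.74 in the 7 tumors. It was 6.80, 4.95, 6.50 and 5.48 in the aortas. It was 12.06, 12.05, 12.19 and 12.13 in sternocleidomastoid and 12.26, 12.28, 12.22 and 12.14 in quadriceps. Every tumor and aorta lay below every muscle, while tumors and aortas overlapped. The difference was -5.0 ± 0.55 (SE) for tumors against muscle (limma adjusted p = 2.3e-07) and -6.23 ± 0.65 for aortas against muscle (limma adjusted p = 3.85e-07). Tumors and aortas differed by 1.23 ± 0.67 (limma adjusted p = 0.169), which passed without tumor 5 (1.61, limma adjusted p = 0.0418). A second, dimmer Ryr1 probe set gave 5.71 ± 0.23 (SD, n = 7) in tumors, 5.64 ± 0.11 (n = 4) in aortas, 7.21 ± 0.33 (n = 4) in sternocleidomastoid and 7.16 ± 0.51 (n = 4) in quadriceps, the same side of muscle with a smaller gap.

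Cacna1s, the pore of the L-type channel that senses the membrane voltage and opens Ryr1, followed the same order. Its level was 6.63 ± 1.04 (SD, n = 7) in tumors and 5.95 ± 0.47 (n = 4) in aortas, against 11.26 ± 0.04 (n = 4) in sternocleidomastoid and 11.39 ± 0.13 (n = 4) in quadriceps. Tumors were lower than muscle by a log2 difference of -4.70 ± 0.33 (SE; limma adjusted p = 3.94e-10), and aortas by -5.37 ± 0.39 (limma adjusted p = 2.42e-09). The tumor and aorta ranges overlapped (5.51 to 8.24 in tumors, 5.32 to 6.31 in aortas), with a difference of 0.67 ± 0.40 (limma adjusted p = 0.209).

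Ryr2, the release channel of the heart, was bright in aortas alone. It was dim in all 7 tumors (lowest 4.65, median 4.76, highest 5.33). In the aortas it was 8.17, 8.71, 8.05 and 8.94. It was dim too in sternocleidomastoid (4.95, 5.03, 4.99 and 4.40) and in quadriceps (4.97, 4.98, 4.86 and 4.98). All 4 aortas stood above all other arrays. The log2 difference was -3.61 ± 0.16 (SE) for tumors against aortas (limma adjusted p = 1.98e-11) and 3.57 ± 0.16 for aortas against muscle (limma adjusted p = 2.47e-12). Tumors and muscle differed by -0.04 ± 0.13 (limma adjusted p = 0.848), both dim. Centring arrays on 5 housekeeping genes made the difference -0.71 (limma adjusted p = 8.85e-05), near the -0.715 to which that scaling moved the median of all genes. The order of the aortas in Ryr2 (4, 2, 1, 3) was also their order in the heart muscle marker mean (8.38, 8.16, 8.07 and 7.95). Atp2a2 gave this order too, but Pln (4, 2, 3, 1), Sln and Casq2 (each 4, 1, 2, 3) did not. The atrial markers Myl7 (11.33 ± 0.37, SD, n = 4) and Nppa (10.03 ± 0.27) were bright in the aortas, while Myl7 was dim in all other groups. Of the 12 heart markers, 10 were lower in tumors than in aortas, and 9 were higher and 1 lower in aortas than in muscle. Not all were bright in aortas: Bmp10 (4.86 ± 0.25) and Nppb (5.27 ± 0.26) were dim there, and Sbk2 was the marker lower in aortas than in muscle (-2.50 ± 0.20, SE; limma adjusted p = 8.52e-09). The part of heart tissue in the Ryr2 signal was not tested.

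**Figure D3:**
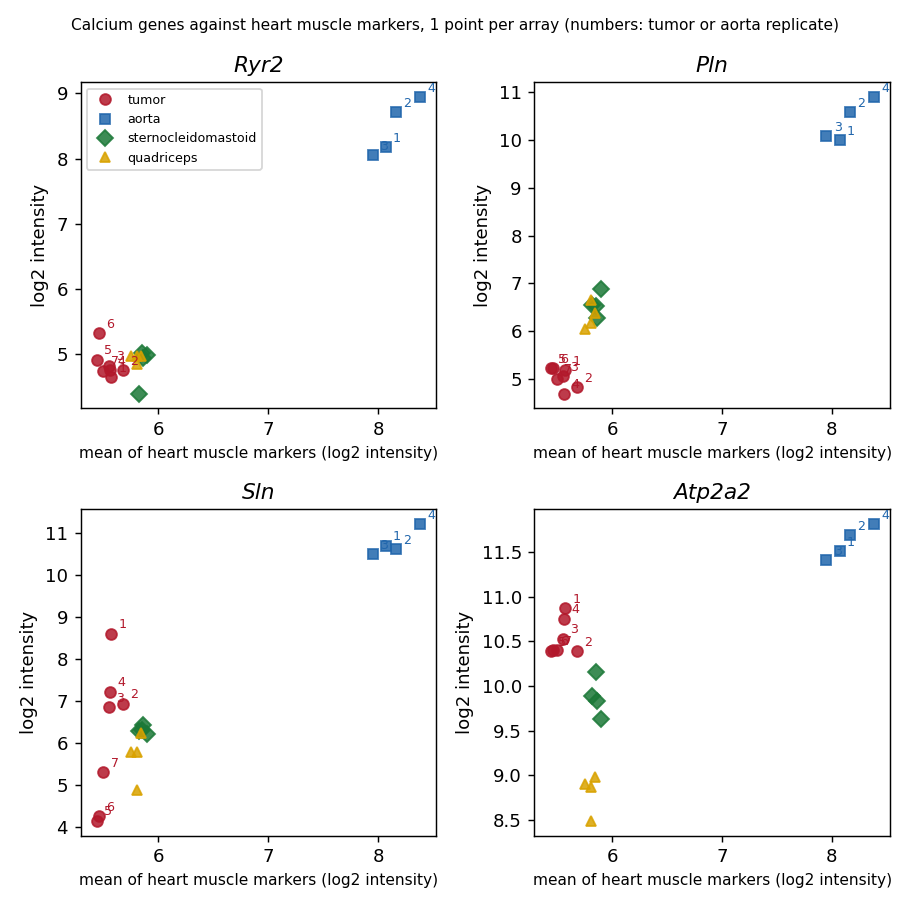
Log2 intensity of Ryr2, Pln, Sln and Atp2a2 (y axes) against the mean of 12 heart muscle markers (x axis) on each array; numbers give the tumor or aorta replicate. The aortas stand apart at marker means of 7.95 to 8.38, whereas Sln spreads from 4.14 to 8.59 among tumors whose marker means lie within 5.44 to 5.68.

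The calsequestrins bind calcium inside the store, and their levels took different courses. Casq1 is the form of fast skeletal fibres and Casq2 that of the heart and of slow fibres. Their promoter windows are given to show the DNA around each start site for this pair of paralogs, from 250 bases before to 50 after the start, 5′ to 3′ on the strand of the gene (RefSeq, GRCm38.p6). Casq1 is at chr1:172219846-172220145 on the minus strand and Casq2 at chr3:102086165-102086464 on the plus strand. Capitals mark the E-box CAGCTG, a motif bound by myogenic factors, in Casq1 and a match to the MEF2 consensus in Casq2.
Casq1: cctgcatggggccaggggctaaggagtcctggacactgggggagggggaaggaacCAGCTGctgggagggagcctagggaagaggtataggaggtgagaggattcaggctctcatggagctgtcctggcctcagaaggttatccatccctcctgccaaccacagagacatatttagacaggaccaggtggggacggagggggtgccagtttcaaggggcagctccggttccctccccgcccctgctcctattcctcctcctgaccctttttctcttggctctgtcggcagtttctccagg
Casq2: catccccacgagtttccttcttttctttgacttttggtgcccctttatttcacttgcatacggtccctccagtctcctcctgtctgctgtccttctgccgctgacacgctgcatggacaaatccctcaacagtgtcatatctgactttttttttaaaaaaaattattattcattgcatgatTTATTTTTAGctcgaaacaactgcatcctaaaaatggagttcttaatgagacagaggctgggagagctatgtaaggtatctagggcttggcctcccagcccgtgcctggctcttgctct
The E-box lies 195 bases before the Casq1 start and the MEF2 match 69 bases before the Casq2 start, and neither window holds the motif of the other. A match is a description of the letters, not of a bound site.

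Casq1 was 7.05 ± 1.13 (SD, n = 7) in tumors and 7.60 ± 0.30 (n = 4) in aortas, against 12.42 ± 0.10 (n = 4) in sternocleidomastoid and 12.58 ± 0.11 (n = 4) in quadriceps. No tumor (5.40 to 8.29) and no aorta (7.20 to 7.88) reached the muscle range, which began at 12.28. The differences from muscle were -5.45 ± 0.34 (SE) for tumors (limma adjusted p = 9.61e-11) and -4.90 ± 0.41 for aortas (limma adjusted p = 1.7e-08). Casq1 kept 7.57 and 7.20 in aortas 2 and 4, where fast-fibre markers averaged 5.50 and 5.63. In tumors 5 and 6, with fast-fibre means of 5.19 and 5.52, it was 5.40 and 6.08. Tumors against aortas gave -0.56 ± 0.42 (limma adjusted p = 0.334), and -1.19 with tumors 5 to 7 alone (limma adjusted p = 0.0224).

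Casq2 was 6.11 at the median of the 7 tumors, with a lowest value of 4.69 in tumor 7 and a highest of 7.19 in tumor 2. The aortas had 8.22, 8.07, 7.77 and 8.90. Sternocleidomastoid samples had 9.02, 8.84, 7.60 and 7.19, and quadriceps samples 8.48, 8.32, 6.89 and 6.55. All tumors lay below all aortas but overlapped the lower muscles. The difference was -2.15 ± 0.46 (SE) for tumors against aortas (limma adjusted p = 0.00101) and -1.77 ± 0.38 for tumors against muscle (limma adjusted p = 0.000595). Aortas and muscle differed by 0.38 ± 0.45 (limma adjusted p = 0.584).

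Within each muscle, Casq2 took a high and a low level that moved with a Y-linked gene. Eif2s3y, a translation factor gene on the Y chromosome, was dim in the 2 sternocleidomastoid samples with high Casq2 (3.78 and 3.68) and bright in the other 2 (8.36 and 7.79). Among quadriceps it was dim in the 2 samples with high Casq2 (3.71 and 3.53) and bright in the other 2 (8.16 and 8.29). Xist, transcribed from the inactive X chromosome, ran the other way, at 10.59, 10.81, 5.20 and 5.10 in sternocleidomastoid and 10.64, 10.61, 5.71 and 5.14 in quadriceps. The aortas did not share this pattern, since the single aorta with bright Eif2s3y (8.73) had the highest Casq2 of the 4. Tumors 3 and 7, with bright Eif2s3y (9.05 and 8.05), had Casq2 at 6.20 and 4.69, inside and below the 5.82 to 7.19 of the other tumors. At each Eif2s3y level both sternocleidomastoid samples had more Casq2 than both quadriceps samples. The muscle difference of 0.60 ± 0.52 (SE; limma adjusted p = 0.93) missed the threshold, also with a term for the Y-linked signal and the muscle arrays alone (0.60, limma adjusted p = 0.0522). The mean of 7 slow-fibre markers was split the same way, at 6.86, 7.17, 6.61 and 6.49 in sternocleidomastoid and 6.24, 6.45, 5.77 and 5.62 in quadriceps. Slow-fibre marker signal and Y-linked signal thus moved together with Casq2 in these 8 samples, and the part of either was not tested. In label order, the samples with dim Eif2s3y came before those with bright Eif2s3y in both muscles. The labels give no animal identity, so both muscles may come from the same mice. They are therefore not known to be independent repeats of the split. The labels give no sex, and the split of Casq2 was noticed in these values, so no test of it is given.

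**Figure D4:**
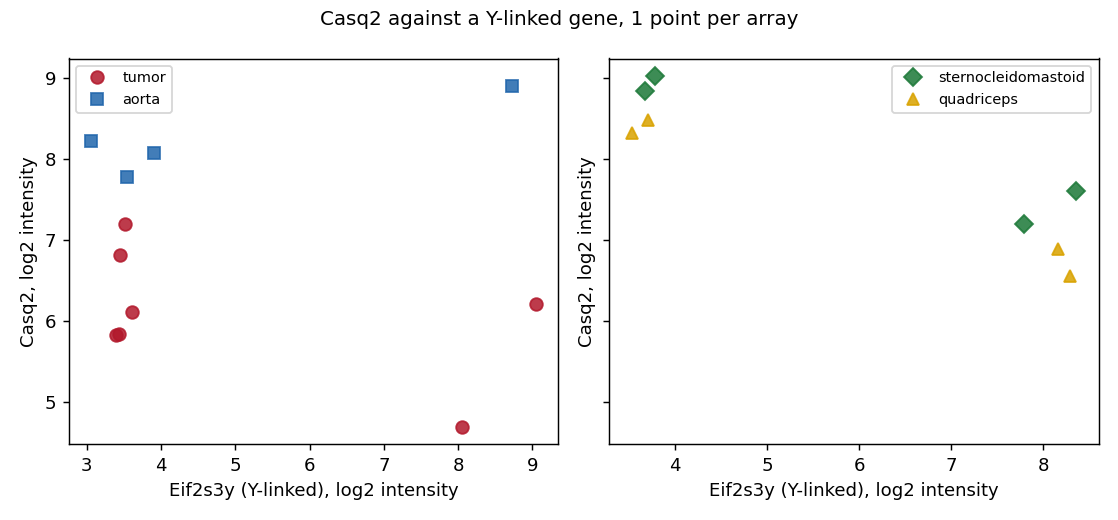
Log2 intensity of Casq2 (y axis) against that of the Y-linked gene Eif2s3y (x axis) on each array, with tumors and aortas on the left and muscles on the right. In both muscles the 2 samples with dim Eif2s3y had Casq2 at 8.32 or more, and the 2 with bright Eif2s3y at 7.60 or less, a split not seen in aortas.

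Atp2a1 (SERCA1), the calcium pump of fast fibres, varied more among tumors than any other of the 10 genes, with an SD of 2.45. Its promoter window, shown because the gene carries the E-box CAGCTG (capitals) 55 bases before its start, is at chr7:126463024-126463323 on the minus strand.
Atp2a1: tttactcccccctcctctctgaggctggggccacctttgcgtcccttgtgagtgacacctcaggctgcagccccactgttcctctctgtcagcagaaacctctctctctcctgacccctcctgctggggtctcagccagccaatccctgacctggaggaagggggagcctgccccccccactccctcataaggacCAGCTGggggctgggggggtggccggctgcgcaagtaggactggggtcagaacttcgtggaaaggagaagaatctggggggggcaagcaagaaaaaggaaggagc
In the 7 tumors the signal was 10.53, 10.99, 8.37, 9.90, 5.17, 5.59 and 10.64 for tumors 1 to 7. In the aortas it was 9.34, 5.67, 8.90 and 6.04. In the muscles it was 12.80, 12.83, 12.85 and 12.78 (sternocleidomastoid) and 12.96, 12.98, 12.89 and 12.81 (quadriceps). Tumors 5 and 6 were near the dim limit and 4 tumors were at 9.90 or above, yet all stayed below muscle. The log2 difference from muscle was -4.12 ± 0.82 (SE; limma adjusted p = 0.000292) for tumors and -5.37 ± 0.98 (limma adjusted p = 0.00023) for aortas. Between tumors and aortas it was 1.26 ± 1.0 (limma adjusted p = 0.366), with overlapping groups.

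Atp2a2 (SERCA2), the pump of heart, slow fibres and smooth muscle, was the only gene of the 10 that differed between all 4 tissues. In tumors it had a lowest value of 10.39, a median of 10.40 and a highest value of 10.87. In the aortas it was 11.51, 11.69, 11.41 and 11.81. In sternocleidomastoid it was 9.83, 10.16, 9.63 and 9.89, and in quadriceps 8.98, 8.87, 8.49 and 8.90. None of the 4 tissues overlapped another, in the order aorta, tumor, sternocleidomastoid, quadriceps. Tumors were lower than aortas by a log2 difference of -1.07 ± 0.13 (SE; limma adjusted p = 1.78e-06) and higher than muscle by 1.19 ± 0.10 (limma adjusted p = 1e-08). They were higher than each muscle alone, by 0.65 ± 0.13 for sternocleidomastoid (limma adjusted p = 0.000248) and 1.72 ± 0.13 for quadriceps (limma adjusted p = 1.5e-09).

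Sternocleidomastoid had more Atp2a2 than quadriceps, by 1.07 ± 0.14 (SE) or 2.10-fold (limma adjusted p = 0.000441), and it was the member called between the muscles. The call held without each of the 8 muscle arrays in turn (0.96 to 1.15). Between the muscles, slow-fibre and brown adipocyte marker means were, like Atp2a2, higher in sternocleidomastoid. The mean of 7 slow-fibre markers was 6.49 to 7.17 in sternocleidomastoid and 5.62 to 6.45 in quadriceps, although 0 of the 7 passed the limma test singly (2 were higher at an unadjusted p below 0.05). The mean of 6 brown adipocyte markers was 8.12 to 9.73 in sternocleidomastoid and 6.10 to 7.91 in quadriceps, with 2 of 6 called higher. In the aortas, where Atp2a2 was brightest, the brown adipocyte mean was 10.81 to 11.42. Other arrays did not follow it. Tumors had brown adipocyte means of 4.96 to 8.25, yet more Atp2a2 (10.39 to 10.87) than sternocleidomastoid (9.63 to 10.16). Quadriceps 4 had the highest brown adipocyte mean of its group (7.91) but less Atp2a2 (8.90) than quadriceps 1 (8.98). The part of these cell types in the Atp2a2 differences was not tested.

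Sln (sarcolipin) and Pln (phospholamban) are small membrane proteins that inhibit SERCA pumps. Sarcolipin is typical of the atria and of some skeletal fibres, and phospholamban of the ventricle, slow fibres and smooth muscle. Sln was 8.59, 6.93, 6.84, 7.21, 4.14, 4.25 and 5.29 in tumors 1 to 7. It was 10.69, 10.60, 10.49 and 11.20 in the aortas. It was 6.43, 6.29, 6.21 and 6.28 in sternocleidomastoid and 6.22, 5.77, 4.88 and 5.77 in quadriceps. All aortas lay above all other arrays, and the tumors spread on both sides of muscle. Tumors were lower than aortas by -4.57 ± 0.62 (SE; limma adjusted p = 8.54e-06), and aortas were higher than muscle by 4.77 ± 0.60 (limma adjusted p = 3.96e-06).

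The tumor and muscle difference in Sln depended on which tumors were counted. Over all 7 tumors it was 0.20 ± 0.51 (SE; limma adjusted p = 0.775). With tumors 1 to 4 alone it was 1.41 (limma adjusted p = 0.000387), and with tumors 5 to 7 alone, whose title codes follow those of the normal tissues, it was -1.42 (limma adjusted p = 0.000287). The labels name no batch, so a processing batch and a difference between tumors cannot be told apart here. Tumors 1 to 4 each had more Sln than any muscle sample, and tumors 5 and 6 less than any.

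Pln was bright in the aortas, lower in the muscles and dim in all 7 tumors (lowest 4.69, median 5.06, highest 5.22). It was 9.995, 10.58, 10.08 and 10.90 in aortas, 6.28, 6.52, 6.88 and 6.55 in sternocleidomastoid and 6.37, 6.66, 6.18 and 6.05 in quadriceps. The 3 levels did not overlap. Tumors were lower than aortas by -5.36 ± 0.17 (SE; limma adjusted p = 4.59e-14) and lower than muscle by -1.41 ± 0.14 (limma adjusted p = 4.67e-08). Because the tumor signal was dim, these differences are between signals and give no exact ratio of RNA, as for Ryr2. Aortas were higher than muscle by 3.96 ± 0.16 (limma adjusted p = 1.05e-12). The aortas held both heart muscle and smooth muscle markers, and their parts in the Pln signal were not tested. In the tumors the smooth muscle marker mean was 8.10 to 9.60, against 7.06 to 7.54 in the muscles. Of the 7 markers, 6 were higher and 1 (Lmod1) lower in tumors than in muscle. Their relation to the dim Pln of the tumors was not tested.
The Pln promoter window is shown beside the others because Pln was brightest in aorta and carries the same E-box as Casq1 and Atp2a1, here 8 bases after the start. It also holds a match to the letters of the TATA box (TATAAA). Capitals mark the E-box. The TATAAA match lies 219 bases before the start and is not shown to act as a TATA box. The window is at chr10:53337436-53337735 on the plus strand.
Pln: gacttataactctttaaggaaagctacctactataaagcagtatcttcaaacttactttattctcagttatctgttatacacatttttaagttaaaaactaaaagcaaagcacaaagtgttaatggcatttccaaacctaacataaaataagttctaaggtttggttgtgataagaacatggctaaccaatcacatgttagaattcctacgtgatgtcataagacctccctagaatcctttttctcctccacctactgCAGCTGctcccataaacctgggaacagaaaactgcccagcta
RefSeq windows were matched for 8 of the 10 genes, all but Atp2a2 and Sln, with 9 windows in all because Pvalb has 2 starts. CAGCTG, which reads the same on both strands, was in 4 of the 9 windows (Cacna1s, Casq1, Atp2a1 and Pln) and in 16.3% of all 32851 RefSeq windows. The MEF2 consensus, searched on both strands, was in 2 (Casq2 and Pvalb), beside 3.19% of all windows. TATAAA was in 1 window (Pln), beside 13.6%, and the CArG box, the site of serum response factor, in 0, beside 1.63%. No match overlapped a match to another motif.

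Pvalb (parvalbumin) buffers calcium in the cytosol of fast fibres and speeds their relaxation. It was 8.69, 8.54, 5.66, 8.49, 5.19, 5.31 and 9.71 in tumors 1 to 7. It was 7.25, 5.69, 6.47 and 5.52 in aortas, against 12.82, 12.69, 12.82 and 12.81 in sternocleidomastoid and 12.95, 12.93, 12.94 and 12.84 in quadriceps. Tumors fell into 4 samples at 8.49 or above and 3 at 5.66 or below, all under the muscles. The log2 difference from muscle was -5.48 ± 0.59 (SE; limma adjusted p = 1.51e-07) for tumors and -6.62 ± 0.69 (limma adjusted p = 3.9e-07) for aortas. Tumors and aortas differed by 1.13 ± 0.71 (limma adjusted p = 0.239).

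The skeletal genes were high and low in nearly the same tumors as the fast-fibre markers. The mean of 10 fast-fibre markers, among them the myosin Myh4 and the fast troponin Tnni2, was 8.53, 10.13, 6.58, 8.35, 5.19, 5.52 and 9.10 in tumors 1 to 7. Atp2a1 ranked the 7 tumors in the same order as this mean (2, 7, 1, 4, 3, 6, 5). Ryr1 and Cacna1s gave nearly the same order, with tumor 1 ahead of tumor 7 in both and tumor 5 ahead of tumor 6 in Cacna1s. In tumors 5 and 6, Myh4 was dim (4.25 and 4.40), as were Ryr1 (4.93 and 5.25) and Pvalb. Tumor 3 also had dim Myh4 (4.68), but Ryr1 (6.24) and Pvalb (5.66) were not dim there. Slow-fibre markers stood highest in tumor 1 (7.77, against 5.52 to 6.66 in the other tumors), the tumor with the most Sln and the most Atp2a2. Of the 12 heart markers, 5 had a dim mean in tumors, Myl7 and Myh6 among them, and others did not, such as Tnnt2 (6.21 to 8.38) and Nkx2-5 (6.91 to 7.21). Aortas 1 and 3, the aortas with more fast-fibre marker signal, also had more Atp2a1, Ryr1, Cacna1s and Pvalb than aortas 2 and 4. Without aortas 1 and 3, the tumor and aorta difference was 2.89 for Atp2a1 (limma adjusted p = 0.0874) and 1.95 for Ryr1 (limma adjusted p = 0.111), and the same 5 genes were called lower. Since those aortas had the highest signals of both genes, leaving them out had to raise both differences. With tumors 1 to 4 alone, Atp2a1 (2.46), Ryr1 (2.03), Pvalb (1.61) and Cacna1s (1.08) were called higher than in aortas (limma adjusted p = 0.00491 to 0.0247), which made 9 of 10 genes called. The part of admixed skeletal muscle in these values was not tested.

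**Figure D5:**
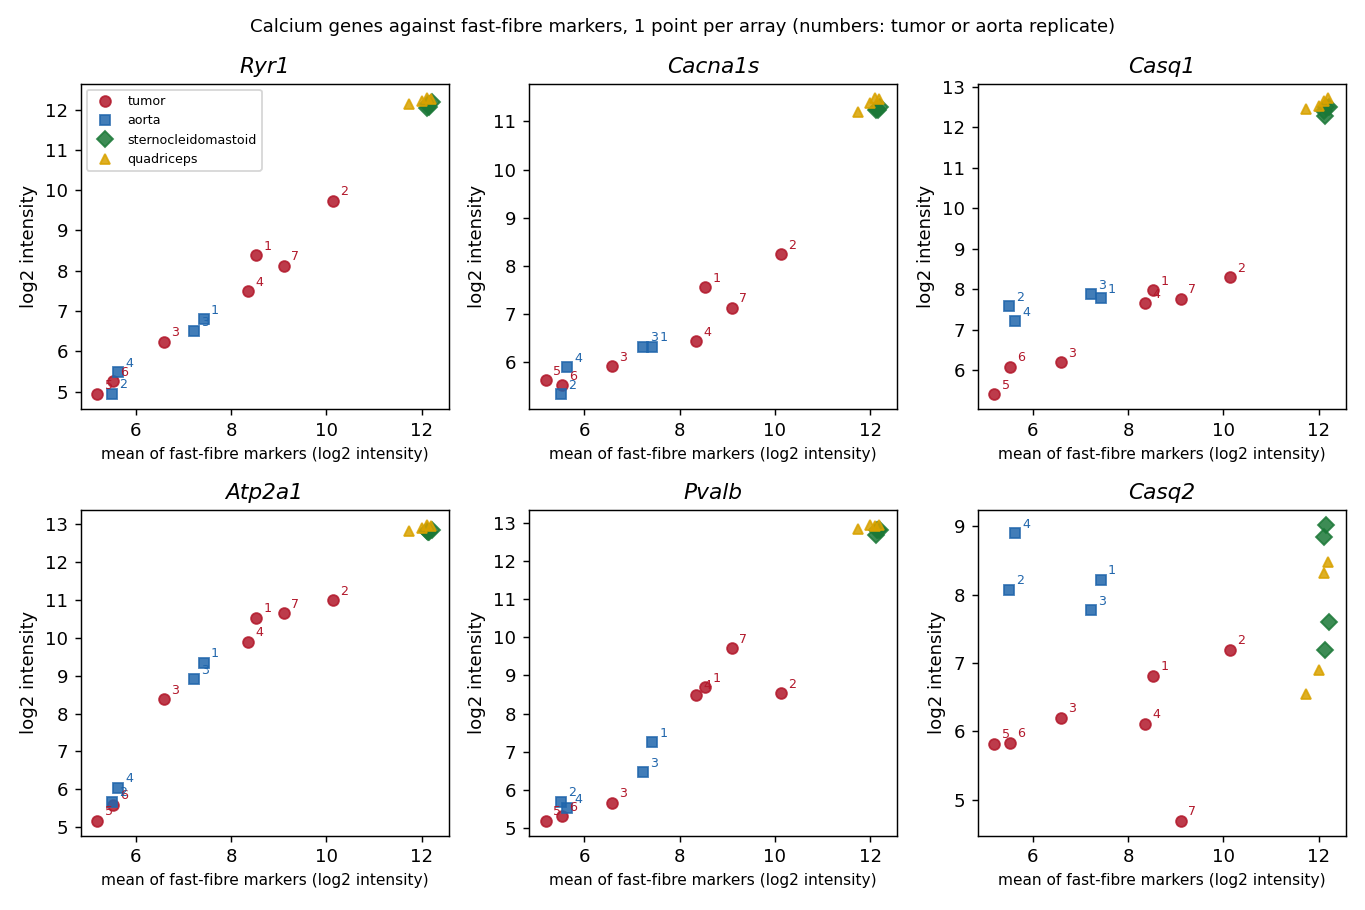
Log2 intensity of 6 of the genes (y axes) against the mean of 10 fast-fibre markers (x axis) on each array; numbers give the tumor or aorta replicate. Ryr1, Cacna1s, Atp2a1 and Pvalb are low in tumors 5 and 6 (marker means 5.19 and 5.52). They are higher in tumors 1, 2, 4 and 7 (8.35 to 10.13) and highest in the muscles (11.74 to 12.21). Casq1 keeps 7.20 or more in all aortas. Casq2 overlaps between aortas (7.77 to 8.90) and muscles (6.55 to 9.02). Among tumors Casq2 is highest in tumor 2, as is the marker mean, but lowest in tumor 7.

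Other genes of calcium handling were read from a list of 48, of which 44 were measured. Against muscle 29 were lower in tumors, 10 higher and 5 did not pass, with a median of -1.44 beside -0.04 over all genes. Of all genes, 25.7% were lower and 25.3% higher, so the share of the list that was higher was near the background. Among 17 genes of the triad and the release complex, 14 were lower. The largest differences were those of triadin, Trdn, which anchors calsequestrin to the release channel (-5.21 ± 0.56, SE; limma adjusted p = 1.6e-07), and of junctophilin 1, Jph1, which joins the store to the T-tubule (-4.89 ± 0.20; limma adjusted p = 3.58e-13). They were followed by the cation channel Tmem38a (-4.82 ± 0.35) and sarcalumenin, Srl, a calcium-binding protein of the store (-4.76 ± 0.34). Of the 5 channel subunits, 4 were lower in tumors, and Cacna1c, the L-type pore of heart and smooth muscle, was higher (0.96 ± 0.14; limma adjusted p = 7.11e-06). The 2 of 17 triad genes higher in tumors were Fkbp1a (1.17 ± 0.10) and Fkbp1b (1.19 ± 0.19), whose products bind release channels. Fkbp1b had a dim mean in sternocleidomastoid (4.46) and quadriceps (4.42) and 5.63 in tumors (5.02 to 6.45), so its difference gives no exact ratio of RNA. Cacna1c, Fkbp1a and Fkbp1b were chosen for mention after their values were seen.

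Against aorta, tumors had 12 of the 44 lower and 9 higher, a median of 0.05, where 17.5% of all genes were lower and 18.6% higher. The share of the list that was higher was near that background. Srl (-2.22 ± 0.41), the calcineurin regulator Rcan2 (-2.18 ± 0.17) and the calcium sensor S100a1 (-1.84 ± 0.32), which is abundant in the heart, were lower, and the store sensor Stim2 was higher (1.19 ± 0.15; limma adjusted p = 2.89e-06). In aortas against muscle 28 of 44 were lower and 6 higher, beside 15.3% lower and 17.0% higher over all genes. The lower ones were led by Trdn (-5.70 ± 0.66), Jph1 (-4.76 ± 0.24), the SERCA inhibitor myoregulin, Mrln (-4.51 ± 0.13), and Stac3, an adaptor of the voltage sensor (-4.49 ± 0.15). Mrln was dim in tumors and aortas (4.69 ± 0.23, SD, n = 7, and 4.74 ± 0.09, n = 4) and bright in sternocleidomastoid (9.26 ± 0.22, n = 4) and quadriceps (9.24 ± 0.27, n = 4). Between the muscles Rcan2 was the 1 gene of 44 called (0.433% of all genes were), higher in sternocleidomastoid (0.93 ± 0.19; limma adjusted p = 0.0357), and no gene of the list was called without quadriceps 1, 2 or 4 or without sternocleidomastoid 1 or 4.

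The genes with the profiles nearest to each member were found by the root mean square distance of gene-centred values over the 19 arrays. Atp2a1 lay nearest to the fast troponin T gene Tnnt3 (0.20), Ryr1 to Tnni2 (0.29), Casq1 to Klhl31 (0.30), Cacna1s to Tmod4 (0.36) and Pvalb to Mybpc2 (0.47). Ryr2 lay nearest to Mybphl (0.31), Pln to the cardiac myosin gene Myh6 (0.53) and Sln to the cardiac troponin T gene Tnnt2 (0.69). Atp2a2 lay nearest to Impdh1 (0.32). Casq2 lay nearest to Slc25a33 (0.67), a mitochondrial carrier gene. These distances describe tissue differences and carry no test.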

How the data were processed

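Total RNA of 19 mouse samples was extracted with a miRNeasy kit, checked on a Bioanalyser, made into biotinylated cRNA and hybridised to Affymetrix arrays, per the labels' protocols. The table deposited by the authors holds log2 intensities, a scale read from its values, for 41345 probe sets. Partek 6.6 is named in the submitters' processing notes, and what was done for background, normalization and filtering is not stated in the sources used here. Without scanner files or detection calls, a dim signal cannot be told from an absent one.

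Genes came from GEO's platform annotation: 23521 probe sets had 1 symbol, 1814 several and 16010 none. Each of 22180 genes was read from 1 single-symbol probe set, the brightest on average where several existed (1082 genes). Intensities of different probe sets are not comparable as amounts. limma 3.58.1 (R 4.3.3) fitted 1 mean per group to all 19 arrays with lmFit and eBayes, with p-values adjusted by Benjamini-Hochberg over all genes at a threshold of 0.05. The fit shares 1 variance per gene over all groups, so tumor spread widens the errors between the muscles. The procedure was tested on simulated data in which a gene had equal spread in all groups. That setting does not cover genes of unequal spread, such as Atp2a1 (SD 2.45 in tumors and 0.03 in sternocleidomastoid).

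Among other calcium genes, the 4 with the largest called difference in each comparison are named. The 10 genes, the other lists and the rules were chosen with earlier results of these data known. Alternatives were the scaling, quantile normalization, a filter on dim genes, the mean of a gene's probe sets, variance models, the arrays in the fit, the threshold and leaving out arrays. Promoter windows are from RefSeq (GRCm38.p6). Summaries and plots were made in Python 3.11.15 (pandas 2.3.3; plots in matplotlib 3.10.9).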

Additional observations from a re-analysis of the deposited data

Results flagged for a closer look

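In 40 groups of arrays (10 genes in 4 tissues), 4 single arrays stood apart from the rest of their group by Dixon's test at the 95% level, and chance flags about 1 in 20 groups. Ryr2 was 5.33 in tumor 6, above the 4.65 to 4.92 of the other tumors. Ryr2 was 4.40 in sternocleidomastoid 4, below the 4.95 to 5.03 of the other 3, and 4.86 in quadriceps 3, below the 4.97 to 4.98 of the other 3. All of these Ryr2 values are dim. Pvalb was 12.69 in sternocleidomastoid 2, below the 12.81 to 12.82 of the other 3.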

How the results depend on the processing

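For the 10 genes, 1013 recomputed differences kept their direction and their side of the threshold, 9 passed it where the reported one did not, and 8 changed sign. Of the 8, 1 was called: Sln in tumors against muscle, -1.42 with tumors 5 to 7 alone (1.41 with tumors 1 to 4 alone). The other 7 missed the threshold. They were Sln in tumors against muscle with housekeeping centring (-0.48), with sternocleidomastoid alone as muscle (-0.13) and without tumor 1 (-0.20, in a range of -0.20 to 0.54 without single arrays), Ryr2 in tumors against muscle with sternocleidomastoid alone (0.018) and tumors 5 to 7 alone (0.11), Atp2a1 in tumors against aortas with tumors 5 to 7 alone (-0.35), and Ryr2 between the muscles without sternocleidomastoid 4 (0.041, in a range of -0.17 to 0.041). Members called in tumors against aortas were 9 with tumors 1 to 4 alone, in place of 5, and 5 to 6 when each array was left out in turn. The cause was not tested. Leaving out single arrays gave 8 in tumors against muscle, 9 in aortas against muscle and 1 between the muscles each time.

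Centring arrays on 5 housekeeping genes, some of them higher in tumors, gave 17906 calls over all genes in tumors against aortas, in place of 8023. In tumors against muscle it gave 19356, in place of 11308. Between the muscles it gave 62 in place of 96, and 0 other calcium genes in place of 1. A minimum of 1 log2 unit left 2569 genes in tumors against aortas, 3863 in tumors against muscle, 1993 of 7168 in aortas against muscle and 52 between the muscles. With it, 8 of 21 other calcium genes were left in tumors against aortas and 0 between the muscles. Between the muscles, a threshold of 0.01 left 49 genes and 0 other calcium genes. One variance per group gave 219 and 2, and the compared groups alone gave 200 genes. With a term for Y-linked signal, chosen after seeing the data, the compared groups alone gave 281 and 2. Leaving out each muscle array in turn gave 52 to 108 genes and 0 to 1 other calcium genes, and quadriceps 1, 2 and 3 each moved the first count by more than 1.5 times (60, 52 and 63).

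No paired analysis was possible because the labels give no replicate numbers. No scanner signals or background were analysed here, so dim values, such as Ryr2 outside the aortas, have no order.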
